A study of Mus musculus with 24 samples.

Results

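The comparison described here is that of injury alone, at 5 dpi. Cortex and adjoining brain tissue of mice that received a controlled cortical impact (CCI) and vehicle was set against that of sham-operated mice given vehicle. The comparison rests on 9 of the 24 RNA-seq libraries of the study, chosen by their labels: 5 vehicle mice and 4 sham mice, with 1 library per mouse. The other libraries came from injured mice treated with PLX3397, Anakinra or both, and they enter here only through the shared estimate of the spread. The labels give male mice of strain C57BL6N, 12-16 weeks old, and cortex as the tissue, whereas the methods name C57BL/6JRj mice of a narrower age range and a quadrant that also held striatum, dorsal hippocampus and thalamus.

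Per the methods, injured and sham mice of this comparison both received vehicle, as control chow and saline injections. The name vehicle mice is used here for the injured group only. Vehicle mice had a craniotomy over the right parietal cortex and the impact. In sham mice the skull was left closed and only the scalp was cut and sewn under anesthesia, so that the impact and the opening of the skull cannot be told apart. No genetic modification is given for either group. The vehicle mice carry the numbers J01B, J17B, J18B, J19B and J20B and the sham mice J07, J08, J15 and J16, and values for single mice are always listed in this order. The letter B occurs in all vehicle numbers and in no other mouse. Its meaning is not given in the sources used here, and if it marks a batch, that batch and the injury cannot be told apart.

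An impact kills cells in the cortex beneath it and opens vessels, so that blood and plasma proteins reach the tissue. Microglia, the resident macrophages of the brain, then proliferate and turn to phagocytosis, monocytes enter from the blood, and astrocytes around the lesion enlarge and build up intermediate filaments. Fibroblasts and vessel-associated cells lay down collagen in the lesion core, while neurons nearby lose synapses or die.

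Expression was given as TPM, a level that corrects for gene length and adds up to 1000000 in each library, so that genes can be compared with each other within a library but any gain of abundant transcripts lowers the share of all others. Depth is unknown because the deposited tables hold no read counts, and precision rests on the spread between mice. Between 22544 and 23249 genes were above 0 in vehicle libraries and between 22160 and 22578 in sham libraries. Of 36333 genes, 17267 averaged 0.5 TPM or more across the 24 libraries and were tested on log2(TPM + 1). Genes near 0 in sham mice passed this limit only through injured mice, so that they could rise but hardly fall. Just inside this limit lay Cyb5r2 (mean 0.5003 TPM) and just outside Tcf21 (mean 0.4998 TPM), and 256 genes that were not tested reached a vehicle mean of 0.5 TPM. Each log2 fold change below is vehicle minus sham on this scale, with its SE, which understates the change of genes with low levels. "Rose" and "fell" mean an adjusted p below 0.05 in limma over all genes tested.

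Vehicle mouse J17B was the lowest of the injured mice in most of the raised gene lists. Among 36 gene lists whose mean score (the mean log2(TPM + 1) over the list minus its sham mean) exceeded 0.5 in vehicle mice, J17B had the lowest score in 33. Some lists share genes, so that these ranks are not independent. Over all genes tested, the correlation of log2(TPM + 1) between J17B and another injured mouse ran from 0.9876 (J19B) to 0.993 (J20B). Values without J17B are given for the main counts and for some single genes.

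The tissue was checked by markers of its regions and of tissues that surround the brain. Cortical genes were present in every sham mouse, such as Tbr1, a regulator of deep-layer neurons, at 79.2, 77.9, 72.7 and 71.6 TPM. The striatal signalling protein Ppp1r1b reached 761, 640.2, 664 and 613 TPM in sham and 773, 735, 571, 574 and 722 TPM in vehicle mice, with overlap. Of 8 keratinocyte genes, Krt5 and Krt14 were among the 4 that did not pass the filter on low values, whereas Krt1, Krt10, Lor and Sfn were measured in both groups (means of 2.69, 11.7, 14.03 and 2.71 TPM in sham and 3.12, 10.8, 11.8 and 3.42 TPM in vehicle mice) and did not pass the test. The muscle genes Ckm and Myh4 did not pass the filter, and of the 3 muscle genes tested Tnni2 rose (0.57 ± 0.15) and Acta1 fell (-0.63 ± 0.11). Transthyretin (Ttr), the most abundant transcript of the choroid plexus list, was at 3504, 3676, 3980.4 and 2787 TPM in sham and 2572, 3251, 3332, 3744 and 3608 TPM in vehicle mice, with full overlap of the groups. Of 8 choroid plexus genes Aqp1 (0.42 ± 0.14) and Clic6 (0.30 ± 0.12) rose, a count near the 26.6% that rose among all genes tested. Aqp1 lost its call without J18B (0.33), and so did Clic6 (0.31), which also lost it without J01B (0.28), J20B (0.29), J07 (0.31), J08 (0.19) or J16 (0.26).

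After injury about equal numbers of genes were higher and lower, but the increases were far larger than the decreases. Of all genes tested, 4600 (26.6%) rose and 4778 (27.7%) fell. The median log2 fold change was 0.52 among genes that rose and -0.32 among those that fell, and -0.013 over all genes tested. Among the genes that rose, 1067 changed by more than 2-fold, 335 by more than 4-fold, 96 by more than 8-fold and 29 by more than 16-fold. Among those that fell, 25 changed by more than 2-fold and none by more than 4-fold. Without J17B, 4570 genes rose and 4926 fell.

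By the criteria used in the study for volcano plots (unadjusted p below 0.05, ratio of mean TPM above 2, difference above 4 TPM), 882 DEGs were higher in vehicle mice (5.11% of the genes tested) and 27 were lower (0.156%). All 882 and 26 of the 27 also passed at the adjusted p. In 870 of the higher DEGs every vehicle mouse lay above every sham mouse, and in 25 of the lower DEGs every vehicle mouse lay below, the exceptions being Ccl21b and Gh. The same lack of overlap held for 21.7% of all genes tested in the upward direction and 21% in the downward direction. The higher DEGs together made up 2.01% to 2.14% of all TPM in sham mice and 6.5% to 9.62% in vehicle mice, with the lowest vehicle share in J17B. Of these DEGs, 113 exceeded 100 TPM in vehicle mice and 101 lay under 1 TPM in sham mice. Leaving out J17B gave 958 higher and 34 lower DEGs.

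**Figure D1:**
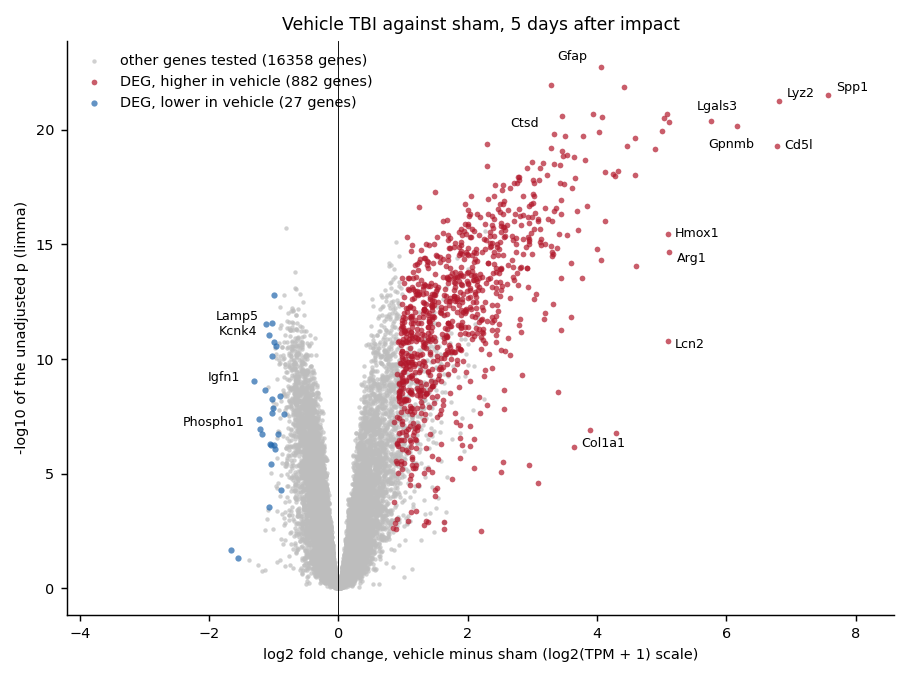
Log2 fold change (vehicle minus sham, x axis) against the -log10 of the unadjusted p from limma (y axis) for the 17267 genes tested, with 882 DEGs higher in vehicle in red and 27 lower in blue. Increases reached a log2 fold change of 7.58 (Spp1), whereas no gene that fell exceeded a 4-fold decrease.

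The increase with the largest log2 fold change was that of Spp1, the secreted phosphoprotein osteopontin, which lies at chr5:104435111-104441053 (GRCm38.p6). Spp1 measured 15.9, 16.8, 19.5 and 18.2 TPM in the 4 sham mice and 4168, 1962, 4473, 5046 and 3037 TPM in the 5 vehicle mice. Every vehicle mouse lay far above every sham mouse, J17B and J20B being the lowest of the injured mice. The group means were 17.6 ± 1.57 TPM (SD, n = 4) and 3737 ± 1233 TPM (SD, n = 5), a ratio of 212, with log2 fold change 7.58 ± 0.22 (SE), adjusted p = 1.31e-18.

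Lyz2 (chr10:117277541-117282272), the lysozyme of myeloid cells, was at 16.8, 13.1, 16.6 and 21.8 TPM in sham and at 2360.3, 1248, 2402, 2494 and 1857 TPM in vehicle mice. The ratio of means was 122 with log2 fold change 6.82 ± 0.20 (SE), adjusted p = 1.85e-18, and J17B was again the lowest of the injured mice. Gpnmb, a glycoprotein of lysosome-rich phagocytes, went from 3.29, 3.93, 2.34 and 2.69 TPM to 332, 196, 322, 318 and 296 TPM (log2 fold change 6.17 ± 0.20 (SE), adjusted p = 9.08e-18). Lgals3, the galectin that binds sugars on damaged lysosomes, went from 1.92, 1.54, 1.78 and 1.02 TPM to 144, 87.5, 168, 178 and 129 TPM (log2 fold change 5.77 ± 0.18 (SE), adjusted p = 6.37e-18). J17B was the lowest injured mouse for both genes, and no injured mouse came near the sham range.

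Cd5l, a protein secreted by macrophages, was under 1 TPM in all sham mice, at 0, 0.0666, 0 and 0.108 TPM, and measured 135, 64.2, 118, 169.8 and 108 TPM in vehicle mice (log2 fold change 6.78 ± 0.24 (SE), adjusted p = 3.97e-17). The arginine-degrading enzyme Arg1, a gene of monocyte-derived macrophages, was at 0.288, 0.0919, 0 and 0.224 TPM in sham and 78.8, 20.4, 40.6, 42.4 and 31.6 TPM in vehicle mice. It varied nearly 4-fold among injured mice, from J17B at the bottom to J01B at the top, yet no vehicle value approached a sham value (log2 fold change 5.12 ± 0.29 (SE), adjusted p = 1.79e-13). Apoc2, the cofactor of lipoprotein lipase, was at 0.175, 0, 0 and 0 TPM in sham mice, that is, listed at 0 in all but 1 of them, and at 37.8, 27.4, 42.04, 38.01 and 31.2 TPM in vehicle mice.

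Of the remaining genes among the 10 largest increases, Hmox1, the heme-degrading enzyme heme oxygenase, went from 8.56, 7.92, 8.82 and 7.05 TPM to 366, 166, 376, 504 and 239.9 TPM (log2 fold change 5.09 ± 0.26 (SE), adjusted p = 4.36e-14). Lcn2, an iron-siderophore-binding protein of reactive astrocytes and neutrophils, was at 0.167, 0, 4.55 and 0.516 TPM in sham, where J15 alone stood above 1 TPM, and at 40.02, 39.96, 81.3, 60.99 and 90.8 TPM in vehicle mice (log2 fold change 5.09 ± 0.43 (SE), adjusted p = 3.63e-10). Wfdc17, a small secreted protein of myeloid cells, rose with a log2 fold change of 5.08 ± 0.16 (SE). The highest sham value of Lcn2 was still below the lowest vehicle value, which the choice of these 10 genes required.

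Ranked by TPM gained, the list was led by proteins of lipid transport, lysosomes and iron storage. Apoe, the main apolipoprotein of the brain and already abundant in sham mice at 2609, 2445, 2447 and 2526 TPM, reached 8212, 6710.2, 8688, 9312 and 8754 TPM in vehicle mice. The lysosomal protease cathepsin D (Ctsd) went from 504, 527, 551 and 551 TPM to 5286, 4236, 5964, 6096 and 5516 TPM, a ratio of means of 10.2. The ferritin light chain Ftl1 went from 789.6, 805, 734 and 767 TPM to 4391, 3266, 5195, 5638 and 4187 TPM. All 3 were lowest in J17B among injured mice and separated the groups fully, with log2 fold changes of 1.72 ± 0.09, 3.33 ± 0.11 and 2.52 ± 0.13 (SE).

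**Figure D2:**
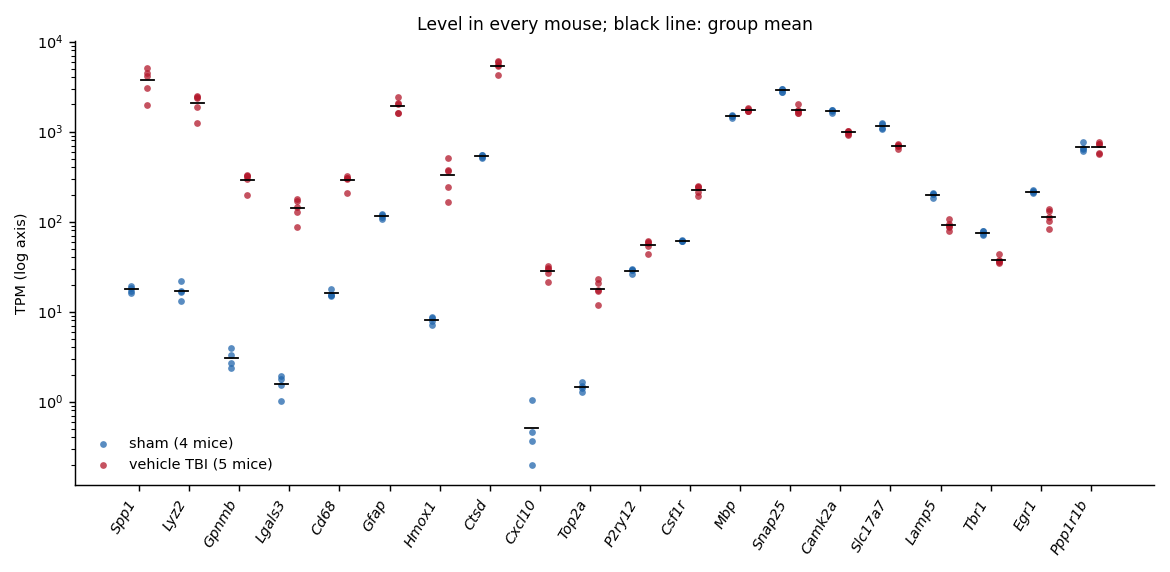
TPM on a log axis (y) of 20 genes (x) in each of the 4 sham mice (blue) and 5 vehicle mice (red), with black lines at the group means. Phagocyte, astrocyte and cell-cycle genes on the left separate the groups by up to 2 orders of magnitude, synaptic and cortical genes on the right by about 2-fold, and the striatal gene Ppp1r1b overlaps fully.

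Genes that mark microglia at rest rose together with those of activated phagocytes. All 13 homeostatic microglia genes tested rose, with a median log2 fold change of 1.30 beside -0.013 over all genes tested, and all 19 genes of activated phagocytes rose, with a median of 3.10. In bulk tissue, more cells of a type and more RNA per cell cannot be told apart, nor can fewer cells and less RNA for genes that fell. P2ry12, the purinergic receptor by which resting microglia sense nucleotides, was at 25.9, 29.3, 29.5 and 29.1 TPM in sham and 43.3, 57.6, 58.8, 53.2 and 61.1 TPM in vehicle mice (log2 fold change 0.91 ± 0.15 (SE), adjusted p = 1.34e-05). Tmem119, a surface protein used to tell microglia from blood macrophages, was at 25.6, 24.7, 25.4 and 23.7 TPM and 60.5, 51.2, 64.4, 75.8 and 64.4 TPM (log2 fold change 1.30 ± 0.10 (SE), adjusted p = 4.48e-11). Both separated the groups, and J01B had the lowest P2ry12 among injured mice. The largest increases on this list were those of the Fc receptor-like gene Fcrls (3.46 ± 0.13) and of Olfml3 (2.55 ± 0.11), and the smallest that of the fructose transporter Slc2a5 (0.41 ± 0.11).

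Cd68, the lysosomal membrane protein stained in the study to mark phagocytes, was at 15.5, 17.8, 15.3 and 15.1 TPM in sham and 302, 209, 308, 321 and 294 TPM in vehicle mice. The ratio of means was 18.02 (log2 fold change 4.08 ± 0.13 (SE), adjusted p = 5.44e-18), and J17B lay below the other injured mice. The lipid receptor Trem2 and its adaptor Tyrobp rose by 3.10 ± 0.13 and 3.43 ± 0.13 on the log2 scale. Cst7, an inhibitor of cathepsins, went from a mean of 0.381 ± 0.172 TPM to 43.3 ± 7.63 TPM (SD, n = 4 and n = 5). Clec7a, the beta-glucan receptor dectin-1, went from 0.533 ± 0.165 TPM to 35.9 ± 4.79 TPM. Both were almost unexpressed in sham mice and could therefore rise but hardly fall. Ptprc, the pan-leukocyte phosphatase CD45, was at 1.72, 1.11, 1.81 and 1.52 TPM in sham and 14.3, 10.9, 16.5, 16.4 and 14.9 TPM in vehicle mice (log2 fold change 2.61 ± 0.13 (SE), adjusted p = 2.2e-14).

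Among genes of macrophages at brain borders, 7 of 9 tested rose (median 3.00), the exceptions being the scavenger receptor Cd163 (0.19 ± 0.11, adjusted p = 0.146) and the hyaluronan receptor Lyve1. Pf4, a chemokine of these cells and of platelets, went from 3.66 ± 1.43 TPM to 63.1 ± 20.1 TPM, and the transglutaminase F13a1 from 1.56 ± 0.295 TPM to 25.5 ± 7.64 TPM. Lyve1 was at 0.817, 0.833, 1.06 and 1.1 TPM in sham and 0.211, 0.674, 0.29, 0.972 and 0.483 TPM in vehicle mice and fell (log2 fold change -0.37 ± 0.14 (SE), adjusted p = 0.0237). Its call was lost in turn without J01B, J18B, J15 or J16 (log2 fold changes -0.30, -0.32, -0.35 and -0.34).

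Genes of cells that enter from the blood changed unevenly. Of the monocyte genes, 7 of 9 passed the filter on low values and all 7 rose (median 1.51). Ccr2, Arg1 and Ly6c2, at sham means of 0.115, 0.151 and 0.137 TPM, passed the filter only through injured mice and could hardly fall. Chil3, given below, and Ms4a4c were in the same position. Ms4a4c had a mean of only 1.12 TPM in vehicle mice without J17B (log2 fold change 1.01). The part of these genes in the count was therefore largely fixed by the filter. The chemokine receptor Ccr2, by which monocytes leave the marrow, was at 0.0716, 0.0684, 0.126 and 0.194 TPM in sham and 3.02, 1.36, 2.16, 2.34 and 2.25 TPM in vehicle mice (log2 fold change 1.51 ± 0.15 (SE), adjusted p = 3.6e-09). The chitinase-like Chil3 went from 0, 0, 0.163 and 0 TPM, listed at 0 in all but 1 sham mouse, to 3.13, 1.76, 2.38, 3.06 and 3.72 TPM. Of 12 neutrophil genes only 4 passed the filter, and these rose (median 2.26), among them the calprotectin subunits S100a8 and S100a9. Members near 0 in sham mice could hardly fall here either. In 3 of the 4, every vehicle mouse lay above every sham mouse, which held for 21.7% of all genes tested. S100a8 measured 0.362, 2.08, 0.319 and 1.12 TPM in sham and 11.2, 2.76, 21.6, 12.3 and 9.64 TPM in vehicle mice, with J17B close to the sham range, and its log2 fold change was 2.54 ± 0.42 with and 2.93 without J17B. The defining neutrophil genes Ly6g, Mpo and Camp were near 0, with group means of 0.0379, 0.0123 and 0.113 TPM in sham and 0.0289, 0.019 and 0 TPM in vehicle mice.

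Most lymphocyte genes were too low to be tested. Of 14 genes of T and NK cells only Cd4 and Lck passed the filter, and neither passed the test, at means of 15.5 and 1.37 TPM in sham and 16.4 and 1.56 TPM in vehicle mice (log2 fold changes 0.07 ± 0.10 and 0.12 ± 0.11). The T-cell receptor component Cd3e was listed at 0 in all sham mice and at 0.363, 0.0891, 0, 0.318 and 0 TPM in vehicle mice. Granzyme A (Gzma), a protease of cytotoxic cells, reached 0.314, 1.08, 0.431, 0.275 and 1.21 TPM in vehicle mice and 0, 0, 0 and 0.251 TPM in sham mice, so that the lowest vehicle mouse, J19B, lay just above the highest sham mouse. Among B-cell genes Cd79b rose (log2 fold change 1.18 ± 0.14 (SE), adjusted p = 8.8e-08), while Ms4a1 (CD20), which defines B cells, was near 0, with means of 0.122 TPM in sham and 0.0502 TPM in vehicle mice.

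All 14 complement genes tested rose, with a median log2 fold change of 2.29, although C1ra lost its call without sham mouse J15 (0.29). C1qa, which with C1qb and C1qc forms the subunit that opens the classical pathway, was at 109.5, 100.4, 106 and 118 TPM in sham and 1168, 958, 1303, 1385 and 1242 TPM in vehicle mice (log2 fold change 3.46 ± 0.11 (SE), adjusted p = 5.36e-18). C4b, which the classical pathway cleaves next, went from 16.3 ± 1.73 TPM to 169 ± 20.7 TPM, and C3, on which all pathways converge, from 0.863 ± 0.296 TPM to 13.5 ± 3.92 TPM (SD, n = 4 and n = 5). The receptors of the released fragments rose too, C3ar1 by 4.03 ± 0.13 and C5ar1 by 3.19 ± 0.17. The inhibitor Serping1 (C1 inhibitor) rose by 1.65 ± 0.11.

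All 5 genes of Fc gamma receptors and their signalling chain rose (median 3.45), led by Fcgr4, which went from 0.227, 0, 0.3004 and 0.352 TPM in sham to 17.1, 9.63, 16.4, 17.7 and 14.1 TPM in vehicle mice. All 12 genes tested of the toll-like receptor list rose (median 1.75), with Tlr2, a receptor of bacterial lipoproteins, ahead (3.36 ± 0.16) and the nucleic acid receptors Tlr13 (2.83 ± 0.14) and Tlr7 (2.74 ± 0.15) next among the receptors. All 6 subunits of the phagocyte NADPH oxidase, which makes superoxide, rose (median 2.72). Its catalytic subunit Cybb measured 0.444, 0.311, 0.573 and 0.321 TPM in sham mice and 17.5, 11.1, 14.7, 14.2 and 13.7 TPM in vehicle mice, a ratio of means of 34.6. For each of Fcgr4 and Cybb the vehicle mice lay within a factor of 2 of each other and far above the sham mice.

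Of 16 CC and CXC chemokines tested, 12 rose and 1 fell (median 2.50). Ccl2, the main attractant of Ccr2-bearing monocytes, was at 0, 0.505, 0.311 and 0.546 TPM in sham and 14.2, 10.1, 14.9, 16.6 and 16.5 TPM in vehicle mice (log2 fold change 3.53 ± 0.18 (SE), adjusted p = 4.76e-14). Ccl12, which binds the same receptor, went from 0.888 ± 0.659 TPM to 30.5 ± 5.92 TPM and Cxcl10, an attractant of activated T cells, from 1.03, 0.37, 0.455 and 0.1999 TPM to 30.6, 21.1, 26.8, 32.1 and 29.8 TPM. The homeostatic chemokines Cxcl12 (0.02 ± 0.07) and Cxcl14 (0.09 ± 0.06) did not pass the test. Cx3cl1, the fractalkine that neurons present to microglia, fell from 703, 692, 714 and 750.1 TPM to 548, 522, 427, 421 and 476 TPM (log2 fold change -0.58 ± 0.08 (SE), adjusted p = 1.42e-06), whereas its receptor Cx3cr1 rose by 1.91 ± 0.10.

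The targets of the drugs that the study tested in its other groups were examined in the same way. Csf1r, the receptor that microglia need to survive and the target of PLX3397, was at 62.5, 60.8, 60.5 and 61.2 TPM in sham and 211, 194, 239.9, 241 and 247 TPM in vehicle mice (log2 fold change 1.86 ± 0.10 (SE), adjusted p = 3.75e-14). Its ligand Csf1 went from 16.2, 15.9, 16.1 and 17.3 TPM to 51.7, 45.1, 67.4, 63.2 and 58.1 TPM (log2 fold change 1.73 ± 0.10 (SE), adjusted p = 1.35e-13), whereas its other ligand Il34, which is made by neurons, fell from 62.9, 65.1, 62.6 and 60.1 TPM to 57.6, 52, 48.4, 46.5 and 50.05 TPM (log2 fold change -0.30 ± 0.06 (SE), adjusted p = 6.34e-05). No vehicle mouse overlapped with sham for Csf1r and Csf1, and the same held in the other direction for Il34. The myeloid transcription factors Spi1 and Irf8 rose by 2.41 ± 0.14 and 2.50 ± 0.13.

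Of 12 genes of the interleukin-1 axis, 9 rose (median 0.86). Il1r1, the signalling receptor that Anakinra blocks, was at 3.53, 3.54, 4.95 and 4.37 TPM in sham and 8.08, 6.61, 10.2, 11.4 and 8.1 TPM in vehicle mice (log2 fold change 0.94 ± 0.14 (SE), adjusted p = 2.22e-06). Its agonist Il1a went from 0.401, 0.447, 0.295 and 0.388 TPM to 1.13, 1.37, 1.69, 1.96 and 1.73 TPM, and the natural antagonist Il1rn from 0.0504, 0, 0 and 0 TPM to 3.08, 0.624, 3.81, 4.67 and 1.58 TPM (log2 fold change 1.76 ± 0.25 (SE), adjusted p = 1.94e-06). The agonist Il1b was low in both groups, at 0.215, 0.461, 0.142 and 0.208 TPM and 0.676, 0.511, 0.334, 0.73 and 0.439 TPM, and did not pass the test (0.29 ± 0.14, adjusted p = 0.0767), although it did without sham mouse J08 (0.37). The inflammasome genes Nlrp3, Casp1 and Pycard rose by 1.25 ± 0.12, 1.64 ± 0.14 and 2.56 ± 0.13, and the alarmin Il33 by 0.84 ± 0.08.

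All 12 genes of the TNF and NF-kB list rose (median 0.85), with Tnf itself going from 0, 0, 0.0757 and 0.266 TPM to 0.999, 0.409, 1.37, 1.97 and 1.23 TPM and its receptor Tnfrsf1b from 2.98 ± 0.639 TPM to 21.9 ± 4.07 TPM. Of 10 genes of the IL-6 family and the STAT3 axis 9 rose (median 1.15), the receptor Lifr being the exception. The cytokine Cntf went from 1.18, 1.13, 1.45 and 1.19 TPM to 9.03, 12.2, 13.8, 13.5 and 12.2 TPM and the feedback inhibitor Socs3 from 2.05, 2.46, 2.55 and 2.31 TPM to 14.8, 9.66, 16.7, 18.2 and 14.7 TPM, with no overlap for either. Il6 was listed at 0 in every sham mouse and had a vehicle mean of 0.15 TPM, under the filter.

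Interferon-stimulated genes, the antiviral and antiproliferative genes that type I interferon induces, rose with 1 exception: 22 of 23 tested passed, with a median log2 fold change of 2.21. The exception, Cmpk2, was at a mean of 26.1 ± 1.44 TPM in sham and 29.7 ± 1.46 TPM in vehicle mice (log2 fold change 0.18 ± 0.08 (SE), adjusted p = 0.0613), and it passed without sham mouse J15 (0.21). The list's classical response element is read by a complex that holds STAT2 and IRF9, and its core letters GAAANNGAA (or TTCNNTTTC on the opposite strand) were searched in the 250 bases before the start of each gene in RefSeq (GRCm38.p6). Overlapping matches were counted separately. They occurred in 9 of the 18 list genes that had a promoter in the table (50%), against 7.13% of all 32851 promoters and 7.49% of the genes tested that had one. A match is a description of the letters and not evidence of a bound site. The promoters of 3 raised genes with 3 matches each are shown, with the matching letters in capitals:

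Ifit1, chr19:34640639-34640888, plus strand: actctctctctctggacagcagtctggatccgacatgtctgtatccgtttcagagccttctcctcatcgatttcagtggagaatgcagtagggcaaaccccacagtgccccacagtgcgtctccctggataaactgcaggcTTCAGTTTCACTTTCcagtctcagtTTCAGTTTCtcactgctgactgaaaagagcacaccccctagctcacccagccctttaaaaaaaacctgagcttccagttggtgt

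Ifit3, chr19:34583279-34583528, plus strand: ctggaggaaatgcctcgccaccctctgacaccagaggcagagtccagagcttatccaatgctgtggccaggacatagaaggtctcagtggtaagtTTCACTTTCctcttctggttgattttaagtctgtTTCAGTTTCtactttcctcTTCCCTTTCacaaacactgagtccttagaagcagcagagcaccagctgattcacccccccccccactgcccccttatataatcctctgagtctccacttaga

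Isg15, chr4:156200819-156201068, minus strand: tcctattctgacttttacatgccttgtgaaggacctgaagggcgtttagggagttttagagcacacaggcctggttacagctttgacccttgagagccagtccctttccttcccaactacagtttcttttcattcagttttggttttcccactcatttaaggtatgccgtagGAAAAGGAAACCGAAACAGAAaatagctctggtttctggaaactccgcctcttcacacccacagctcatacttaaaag

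The genes behind these promoters were raised in all injured mice. Ifit1, which binds foreign RNA caps, measured 3.39, 2.67, 2.47 and 3.88 TPM in sham and 20.5, 17.9, 19.6, 21.6 and 25.2 TPM in vehicle mice (log2 fold change 2.43 ± 0.16 (SE), adjusted p = 6.05e-12). Its neighbour Ifit3 measured 11.2, 11.97, 9.77 and 10.8 TPM and 46.7, 44.1, 52.6, 63.9 and 69.7 TPM (log2 fold change 2.22 ± 0.17 (SE), adjusted p = 5.47e-11). The ubiquitin-like protein Isg15 measured 4.32, 8.79, 3.97 and 5.09 TPM and 44.97, 34.2, 42.9, 51.2 and 44.2 TPM (log2 fold change 2.81 ± 0.21 (SE), adjusted p = 5.37e-11). The groups did not overlap for these genes, and the vehicle mice lay within a factor of 2 of each other. Irf7, which amplifies interferon production, rose by 2.44 ± 0.16. The largest increases on the list were those of Cxcl10 (4.28 ± 0.17) and Ifi27l2a (4.00 ± 0.22), and the smallest that passed was Stat2 (0.47 ± 0.07).

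All 13 GTPases induced by interferon-gamma rose (median 1.42), led by Gbp3 (2.44 ± 0.15). Gbp4 lost its call in turn without J17B, J18B, J15 or J16 (log2 fold changes 0.31, 0.29, 0.27 and 0.30). All 14 genes of MHC class I presentation rose (median 1.55), although Psmb10 lost its call in turn without J19B, J20B, J07 or J16 (0.17, 0.18, 0.18 and 0.15). B2m, the invariant chain of class I molecules, went from 229.6, 236, 217 and 257 TPM to 866, 856, 1026, 973 and 993 TPM, and the immunoproteasome subunit Psmb8 from 6.49 ± 1.06 TPM to 40.2 ± 6.99 TPM. Reads of H2-K1, H2-D1 and the H2-Q genes may be shared among near-identical copies, and their single values (2.02 ± 0.10 for H2-K1) are uncertain to that extent. All 8 genes of MHC class II presentation rose (median 2.32), although H2-DMa lost its call in turn without J01B, J08 or J15 (0.18, 0.19 and 0.16). Cd74, the class II invariant chain, was at 9.04, 7.38, 6.46 and 5.68 TPM in sham and 58.6, 21.9, 50.3, 54.6 and 39.1 TPM in vehicle mice (log2 fold change 2.44 ± 0.20 (SE), adjusted p = 2.12e-10), with J17B and J20B below the other injured mice. The class II regulator Ciita was low, at 0.427 ± 0.137 TPM in sham and 0.836 ± 0.137 TPM in vehicle mice.

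Lysosome, lipid and iron genes followed the phagocyte genes. All 16 cathepsin and lysosome genes rose (median 2.09), with Ctsd (3.33 ± 0.11) and Ctss (2.99 ± 0.11) ahead and the membrane protein Lamp1 last (0.81 ± 0.05). All 11 genes of apolipoproteins and lipid efflux rose (median 2.19). Abca1, which exports cholesterol to apolipoproteins, went from 17.03, 16.3, 19.1 and 18.3 TPM to 94.2, 72.5, 99.9, 96.5 and 89.4 TPM (log2 fold change 2.29 ± 0.08 (SE), adjusted p = 3.79e-17). Ch25h, which makes the oxysterol 25-hydroxycholesterol, went from 0.735, 0.301, 1.85 and 1.3 TPM to 22.1, 17.4, 28.1, 29 and 29.1 TPM. Both separated the groups fully.

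Of 12 genes for heme and iron, 11 rose and 1 fell (median 1.06). Beside Hmox1, Ftl1 and Lcn2, the phagosomal metal transporter Slc11a1 rose by 3.09 ± 0.15 and the plasma iron carrier Trf by 1.33 ± 0.08. The transferrin receptor Tfrc, through which cells take up iron, fell from 79.4, 91.5, 88.9 and 90.1 TPM to 50.4, 64.5, 49.4, 48.1 and 58.8 TPM (log2 fold change -0.69 ± 0.08 (SE), adjusted p = 1.45e-07). Hemoglobin and other red blood cell genes did not pass the test in any of 5 tested members (median 0.15). Hbb-bs, an adult beta-globin, was at 775, 756, 1198 and 1164 TPM in sham and 811, 556, 1159, 1617 and 1469 TPM in vehicle mice, so that the injured mice spanned both sides of the sham range with J17B lowest. The alpha-globin copies Hba-a1 and Hba-a2 share sequence, and their split is uncertain.

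Astrocyte genes rose, those of the reactive state by more than those of resting functions. All 20 genes of reactive astrocytes rose, with a median log2 fold change of 2.35. Gfap, the intermediate filament of astrocytes, lies at chr11:102887336-102897200 and measured 122, 112, 119 and 106 TPM in sham and 1593, 1589, 2437, 2022 and 2085 TPM in vehicle mice. The ratio of means was 16.98 (log2 fold change 4.06 ± 0.10 (SE), adjusted p = 3.12e-19), with J01B and J17B below the other injured mice. The protease inhibitor Serpina3n went from 23.7, 24.4, 24.4 and 22.4 TPM to 479, 378, 622, 595 and 601 TPM and the intermediate filament Vim from 67.1 ± 6.94 TPM to 865 ± 188 TPM. Tgm1, a transglutaminase, was at 0.0877, 0.126, 0.116 and 0.034 TPM in sham mice and at 27.1, 22.3, 47.1, 41.03 and 43.3 TPM in vehicle mice. Several members, such as Vim, Cd44 and Timp1, are also made by other cells.

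Genes for the housekeeping functions of astrocytes rose less: 14 of 15 passed, with a median of 0.35. The water channel Aqp4 led them, at 46.8, 51.7, 54.95 and 52.4 TPM in sham and 192, 192, 254, 206 and 226 TPM in vehicle mice (log2 fold change 2.03 ± 0.11 (SE), adjusted p = 5.62e-14). The glutamate transporters Slc1a2 and Slc1a3 rose by 0.22 ± 0.05 and 0.55 ± 0.06, and glutamine synthetase (Glul) by 0.27 ± 0.04. The glycolytic enzyme Aldoc did not pass (0.06 ± 0.05).

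Genes of the oligodendrocyte lineage rose modestly. Of 14 myelin genes 11 rose and none fell (median 0.40), and all 11 genes of progenitors and differentiating cells rose (median 0.60). Mbp, a main myelin protein, was at 1534, 1485, 1398 and 1497 TPM in sham and 1672, 1712, 1764, 1714 and 1813 TPM in vehicle mice (log2 fold change 0.23 ± 0.05 (SE), adjusted p = 0.000759). Enpp6, a gene of newly forming oligodendrocytes, went from 6.14, 6.92, 6.42 and 4.89 TPM to 13.5, 17.6, 19.9, 15.7 and 19.3 TPM, and Gpr17, a receptor of cells on the way to myelination, from 32.8, 33.3, 35.4 and 32.05 TPM to 81.8, 68.4, 99.7, 75.2 and 76.3 TPM. These 3 genes separated the groups, with ratios of means of 1.17, 2.82 and 2.4. Pdgfra, the receptor that marks progenitors, rose by 0.32 ± 0.06. Opalin, Mobp and Mal did not pass (log2 fold changes -0.15 ± 0.12, 0.06 ± 0.06 and 0.07 ± 0.07). Opalin passed without sham mouse J15 (-0.29), and Mobp and Mal passed without sham mouse J16 (0.15 and 0.17).

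Vessel genes rose by less than 2-fold in most cases. Of 14 endothelial and barrier genes 10 rose (median 0.29), or 8 to 12 when each mouse was left out in turn, among them the junction proteins Cldn5 (0.52 ± 0.09) and Cdh5 (0.61 ± 0.11). The glucose transporter Slc2a1 and the receptor Flt1 did not pass (0.15 ± 0.09 and -0.08 ± 0.09), and Slc2a1 passed without J17B (0.21). Of 8 genes for leukocyte adhesion and permeability 6 rose (median 0.79), led by Icam1, to which leukocyte integrins bind, at 2.12, 2.03, 3.2 and 3.51 TPM in sham and 15.99, 11.4, 18.6, 17.2 and 18.2 TPM in vehicle mice. Plvap, a gene of fenestrated vessels, and Mmp9, a protease that degrades basement membranes, did not pass (0.02 ± 0.10 and 0.16 ± 0.21). Of 10 pericyte and smooth muscle genes 7 rose and 1, the smooth muscle myosin Myh11, fell (log2 fold change -0.42 ± 0.11 (SE), adjusted p = 0.00168).

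Matrix genes rose strongly but differed among the injured mice more than any other list (SD of the vehicle scores 0.91). Of 19 genes of fibrillar collagens and scar matrix 18 rose, with a median log2 fold change of 1.59. Col3a1, which forms thin fibrils in healing wounds, was at 2.68, 1.32, 2.002 and 2.19 TPM in sham and 139.8, 8.75, 169, 179.6 and 15.9 TPM in vehicle mice. Col1a1 (chr11:94936224-94953042), the main chain of type I collagen, was at 6.11, 4.05, 5.66 and 5.14 TPM and 169, 15.1, 206, 196 and 23.4 TPM. In both genes J01B, J18B and J19B stood high, J17B and J20B stood low, and the low mice still lay above every sham mouse. The tests gave log2 fold change 4.29 ± 0.59 (SE), adjusted p = 1.17e-06 for Col3a1 and log2 fold change 3.64 ± 0.55 (SE), adjusted p = 4e-06 for Col1a1, and without J17B the log2 fold changes were 4.94 and 4.20.

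The same split of the injured mice was seen in the elastic fiber protein Eln and the imprinted non-coding RNA H19, which were examined after the spread had been ranked. Eln measured 9.68, 7.56, 9.21 and 9.67 TPM in sham and 60.3, 7.79, 61.05, 70.5 and 11.3 TPM in vehicle mice, and H19 measured 0.372, 0.237, 0.602 and 0.625 TPM and 29.96, 4.61, 60.2, 60.4 and 6.14 TPM. In Eln, J17B lay within the sham range, and its log2 fold change was 1.64 ± 0.45 with and 2.10 without J17B. Among the 418 higher DEGs with a vehicle mean of at least 20 TPM, the SD of log2(TPM + 1) over the vehicle mice had a median of 0.229, and the largest SDs were those of Col3a1 (2.03), Col1a1 (1.81), H19 (1.67), Col1a2 (1.64) and Eln (1.46). The smallest were those of the selenium carrier Sepp1 and the nucleoside transporter Slc29a3 (0.058 each).

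The list score for fibrillar collagens and scar matrix was 2.40, 0.77, 2.67, 2.69 and 1.14 in the vehicle mice and between -0.09 and 0.09 in the sham mice. Genes of meninges and fibroblasts were raised in part: 6 of 9 rose (median 0.47), or 4 to 6 when each mouse was left out in turn. Of these genes Col1a1, Dcn and Lum belong to both lists. Of the remaining 6 genes 3 rose (median 0.33), and their summed level was 99.1, 88.1, 98.9 and 95.2 TPM in the sham and 120.4, 97.8, 135, 115 and 102 TPM in the vehicle mice. Among them, Foxc1 lost its call in turn without J01B, J18B, J19B, J08, J15 or J16. Ogn lost it without J18B, J19B, J07, J08 or J16. The genes that define leptomeningeal cells, Slc47a1 and Slc6a20a, did not pass (-0.07 ± 0.15 and -0.13 ± 0.10). The part of meningeal tissue in the matrix result was not tested. Without J17B, 18 of the 19 matrix genes again rose, with a median of 1.79.

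**Figure D3:**
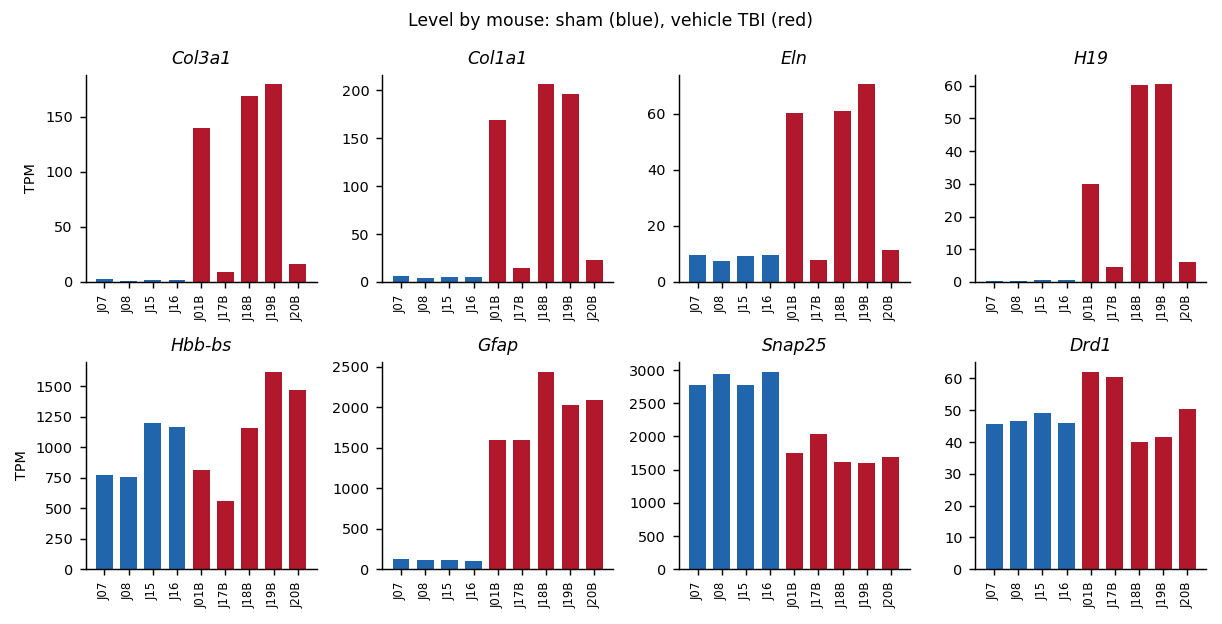
TPM (y axes, from 0) of 8 genes in each sham mouse (blue) and vehicle mouse (red), with mice on the x axes. The collagens Col3a1 and Col1a1, Eln and H19 are high in J01B, J18B and J19B and low in J17B and J20B, whereas Gfap and Snap25 separate all injured mice from sham, and Hbb-bs and Drd1 overlap.

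Other parts of the extracellular matrix changed to different extents. Of 11 basement membrane genes 10 rose (median 0.50), with Nid1, a linker of laminin and collagen IV, ahead (1.36 ± 0.21). Of 11 matrix metalloproteinases and inhibitors 10 rose (median 1.82). The inhibitor Timp1 went from 0.479, 0.457, 0.703 and 0.618 TPM to 38.05, 18.2, 56.4, 61.7 and 28.5 TPM (log2 fold change 4.61 ± 0.28 (SE), adjusted p = 5.81e-13). Mmp8 was listed at 0 in every sham mouse and measured 4.15, 3.09, 4.11, 3.99 and 3.75 TPM in vehicle mice, and Mmp3, likewise listed at 0 in sham, measured 3.21, 0.225, 3.85, 4.69 and 0.484 TPM, with J17B and J20B lowest.

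Among 11 genes of proteoglycans and perineuronal nets, the matrix coats around interneurons, 7 rose and 1 fell (median 0.37). The versican gene Vcan rose by 1.03 ± 0.10. Hapln4, a link protein of perineuronal nets, fell from 156, 146, 149 and 153 TPM to 83.7, 94.7, 85.3, 77.03 and 77.3 TPM (log2 fold change -0.85 ± 0.08 (SE), adjusted p = 1.57e-09), and aggrecan (Acan) did not pass (-0.07 ± 0.11). Of 11 TGF-beta genes 8 rose and 1 fell (median 0.71). The ligand Tgfb1, an inducer of collagen, went from 6.79, 6.92, 7.2 and 7.29 TPM to 34.8, 26.7, 39.9, 37.1 and 34.1 TPM (log2 fold change 2.13 ± 0.12 (SE), adjusted p = 1.36e-13), whereas the signal transducer Smad3 fell (-0.32 ± 0.06). Of 12 genes of the coagulation and plasminogen system 11 rose (median 1.46). The urokinase Plau went from 3.56 ± 0.4996 TPM to 25.3 ± 7.37 TPM (SD, n = 4 and n = 5).

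Genes of dividing cells rose in every injured mouse. All 20 cell-cycle genes rose, with a median log2 fold change of 1.95. Top2a, the topoisomerase that untangles chromosomes before division, was at 1.49, 1.63, 1.27 and 1.43 TPM in sham and 17.4, 11.8, 20.8, 23.1 and 17.1 TPM in vehicle mice (log2 fold change 2.93 ± 0.15 (SE), adjusted p = 5.4e-14). The proliferation marker Mki67 was at 1.21, 0.953, 0.979 and 1.02 TPM and 10.5, 7.001, 11.8, 12.96 and 9.86 TPM (log2 fold change 2.46 ± 0.13 (SE), adjusted p = 9.73e-14). J17B was lowest in both, without reaching the sham range. The smallest increase on the list was that of Pcna, the sliding clamp of DNA polymerase (0.69 ± 0.08), and the largest that of Ube2c, which helps to trigger anaphase (3.13 ± 0.17).

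Neuronal genes made up most of the listed genes that fell. Over the 12 neuronal lists, 122 of 172 genes tested fell and 4 rose, with a median log2 fold change of -0.46. All 18 genes of synaptic vesicles and transmitter release fell, with a median of -0.65 and a range of -0.85 to -0.28, although Slc32a1 lost its call in turn without J18B, J19B or J07 (-0.24, -0.22 and -0.24). Snap25, a core part of the release machinery, was at 2775, 2942, 2777 and 2976 TPM in sham and 1755, 2033, 1609, 1599 and 1698 TPM in vehicle mice (log2 fold change -0.73 ± 0.06 (SE), adjusted p = 7.39e-10). The glutamate loader of cortical vesicles, Slc17a7, went from 1252, 1205, 1067 and 1103 TPM to 689, 719, 702, 641 and 699.8 TPM (log2 fold change -0.74 ± 0.07 (SE), adjusted p = 4.67e-09). No vehicle mouse reached the sham range in either gene. The largest decreases on the list were those of the syntaxin Stx1a (-0.85 ± 0.06) and the active-zone protein Rims1 (-0.83 ± 0.08).

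All 12 genes of the postsynaptic scaffold fell (median -0.61). Camk2a, a kinase of synaptic plasticity, was at 1741, 1699.5, 1596 and 1718 TPM in sham and 1016, 1018, 942, 919 and 996 TPM in vehicle mice (log2 fold change -0.79 ± 0.07 (SE), adjusted p = 4.1e-10). Nrgn, a calmodulin-binding protein of dendritic spines, went from 3736, 3448, 3112 and 3289 TPM to 1998, 2362, 2148, 2003 and 2171 TPM, and the scaffold Dlg4 (PSD-95) from 606 ± 39.9 TPM to 422 ± 31.9 TPM. Beside Nrgn and Snap25, the largest losses in TPM were those of Calm2 and Calm3, which encode calmodulin, and of Bc1, a non-coding RNA of dendrites, which went from 5076, 4214, 6909 and 5936 TPM to 3044, 2676, 3123, 3254 and 4037 TPM. Bc1 shares its sequence with many repeats of the mouse genome, so that its count of reads is uncertain.

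Ion channel and receptor genes fell in most cases but not all. All 21 potassium channel genes fell (median -0.57), most of all Kcnk4, a leak channel opened by membrane stretch, at 15.1, 15.6, 13.8 and 17.4 TPM in sham and 8.02, 7.17, 5.8, 7.27 and 6.03 TPM in vehicle mice (log2 fold change -1.07 ± 0.09 (SE), adjusted p = 2.28e-10). Kcnk2 lost its call without J18B (-0.15). Of 19 sodium and calcium channel genes 16 fell (median -0.46), or 18 without J17B, among them Scn1a, the main sodium channel of fast-spiking interneurons (-0.76 ± 0.07). Of 14 AMPA, NMDA and kainate receptor genes 10 fell (median -0.37). The obligatory NMDA subunit Grin1 went from 522, 487, 480.2 and 499 TPM to 328, 339, 280.1, 282 and 312 TPM (log2 fold change -0.69 ± 0.07 (SE), adjusted p = 2.74e-09), whereas Grin2b measured 26.7, 33.02, 30.6 and 33.4 TPM and 41.7, 48.5, 30.9, 21.7 and 22.9 TPM, with overlap. Of 12 GABA-A receptor genes 8 fell (median -0.47), whereas Gabra2 (0.02 ± 0.10) and Gabrg1 (0.18 ± 0.11) did not pass. Gabrg1 passed, as higher, without sham mouse J15 (0.29).

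Markers of cell classes and regions gave different counts. Of 16 genes of cortical layers 9 fell (median -0.27). Tbr1 was at 36.7, 43.6, 35.8, 34.7 and 37.6 TPM in vehicle mice, below the sham values given above without overlap (log2 fold change -0.98 ± 0.09 (SE), adjusted p = 6.59e-10). None of 12 genes of striatal projection neurons passed the test (median 0.02). The dopamine receptor Drd1 was at 45.8, 46.6, 49.05 and 45.9 TPM in sham and 62.1, 60.5, 39.9, 41.5 and 50.5 TPM in vehicle mice, with the injured mice on both sides of the sham range.

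Of 11 thalamic genes 5 fell (median -0.26) and of 13 hippocampal genes 8 fell (median -0.40). Neurod6, a factor of pyramidal neurons in cortex and hippocampus, went from 92.8, 110.4, 105 and 96.5 TPM to 39.6, 70.8, 53.99, 56.9 and 58.2 TPM (log2 fold change -0.86 ± 0.12 (SE), adjusted p = 1.57e-06), whereas the dentate granule cell factor Prox1 did not pass (-0.05 ± 0.07). Of 11 interneuron genes 9 fell (median -0.48). Lamp5, a marker of neurogliaform interneurons and upper cortical layers, was at 203, 204, 182 and 207 TPM in sham and 92.9, 107, 79.5, 87.2 and 90.4 TPM in vehicle mice, and the peptide somatostatin (Sst) at 835, 773, 736 and 779 TPM and 648, 626, 452, 449 and 571 TPM. The synthetic enzyme Gad2 did not pass (-0.03 ± 0.11).

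The striatal score differed among injured mice (0.34, 0.23, -0.31, -0.26 and 0.07), with J18B and J19B low, and these same mice had the lowest scores for synaptic vesicles (-0.50, -0.51, -0.72, -0.76 and -0.62). The summed level of the striatal genes was 1951 to 2293 TPM in sham and 1717 to 2608 TPM in vehicle mice. The part of tissue sampling in the neuronal decreases was not tested. Differences between the regional lists were not tested either.

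Genes induced by neuronal activity fell in more cases than they rose. Of 16 immediate early genes 8 fell and 4 rose (median -0.47), and 2 rose without J07 or without J16, where Fos and Ier2 lost their calls. Over all genes tested 27.7% fell and 26.6% rose, and the count that rose lies near its share. Egr1, a transcription factor induced by synaptic activity, went from 218, 224, 213 and 206 TPM to 137, 130.1, 82.97, 102 and 113 TPM (log2 fold change -0.95 ± 0.14 (SE), adjusted p = 1.91e-06), and Egr3 from 89.2, 80.9, 88.9 and 81.1 TPM to 53.9, 54.5, 38.5, 40.3 and 48.5 TPM. Jun rose from 43.6, 43.3, 45.2 and 38.5 TPM to 81.03, 63.2, 84.3, 77.6 and 78.3 TPM (log2 fold change 0.83 ± 0.08 (SE), adjusted p = 1.14e-09), and Junb rose by 0.42 ± 0.10. Arc, which is transported to active synapses, did not pass (-0.41 ± 0.22) but fell without J17B (-0.53). The cyclic AMP response element, TGACGTCA, was found in the 250 bases before the start of 1 of 12 of these genes (8.33%), beside 2.81% of the genes tested that had a promoter.

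Genes of injured neurons and axon growth rose in 7 and fell in 5 of 14 cases (median 0.21). Atf3, a stress-induced factor of axotomized neurons that is also made by other cells, was at 1.65, 0.755, 0.76 and 2.06 TPM in sham and 33.1, 23.4, 31.1, 34.7 and 34.7 TPM in vehicle mice (log2 fold change 3.84 ± 0.18 (SE), adjusted p = 5.05e-15). Sprr1a, a cornified-envelope protein induced in regenerating axons, went from 0, 0.344, 0.159 and 0.279 TPM to 12.2, 12.2, 13.1, 17.4 and 12.8 TPM (log2 fold change 3.60 ± 0.27 (SE), adjusted p = 4.76e-11). The injured mice lay far above sham in both, with J19B the highest for Sprr1a. The neurotrophin Bdnf fell from 10.01, 11.6, 11.2 and 10.8 TPM to 6.38, 7.68, 6.33, 6.54 and 8.03 TPM (log2 fold change -0.58 ± 0.10 (SE), adjusted p = 1.76e-05). The growth cone protein Gap43 did not pass (-0.13 ± 0.07) but fell without J01B (-0.18).

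The largest decreases were sought among lower DEGs without overlap, leaving out predicted genes, which were 5 of the 27 lower DEGs. By log2 fold change the 10 largest were those of Igfn1 (-1.30 ± 0.13), Phospho1, Kirrel2, Wnt10a, Lamp5, Kcnk4, Ovol2, Amn, Tnnc1 and Adra1d (-1.03 ± 0.08). Phospho1, a phosphatase known from bone mineralization, went from 38.1, 32.2, 30.4 and 33.99 TPM to 19.96, 15.4, 9.84, 12.5 and 12.9 TPM, and Adra1d, an alpha-1 adrenergic receptor, from 46.6, 47.1, 43.7 and 45.8 TPM to 18.6, 23.4, 24.7, 22.8 and 20.3 TPM. Kirrel2, an adhesion molecule, went from 10.5, 10.5, 10.5 and 10.9 TPM to 4.94, 3.64, 2.42, 4.72 and 4.56 TPM. The lack of overlap was a condition of this choice and is no result.

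**Figure D4:**
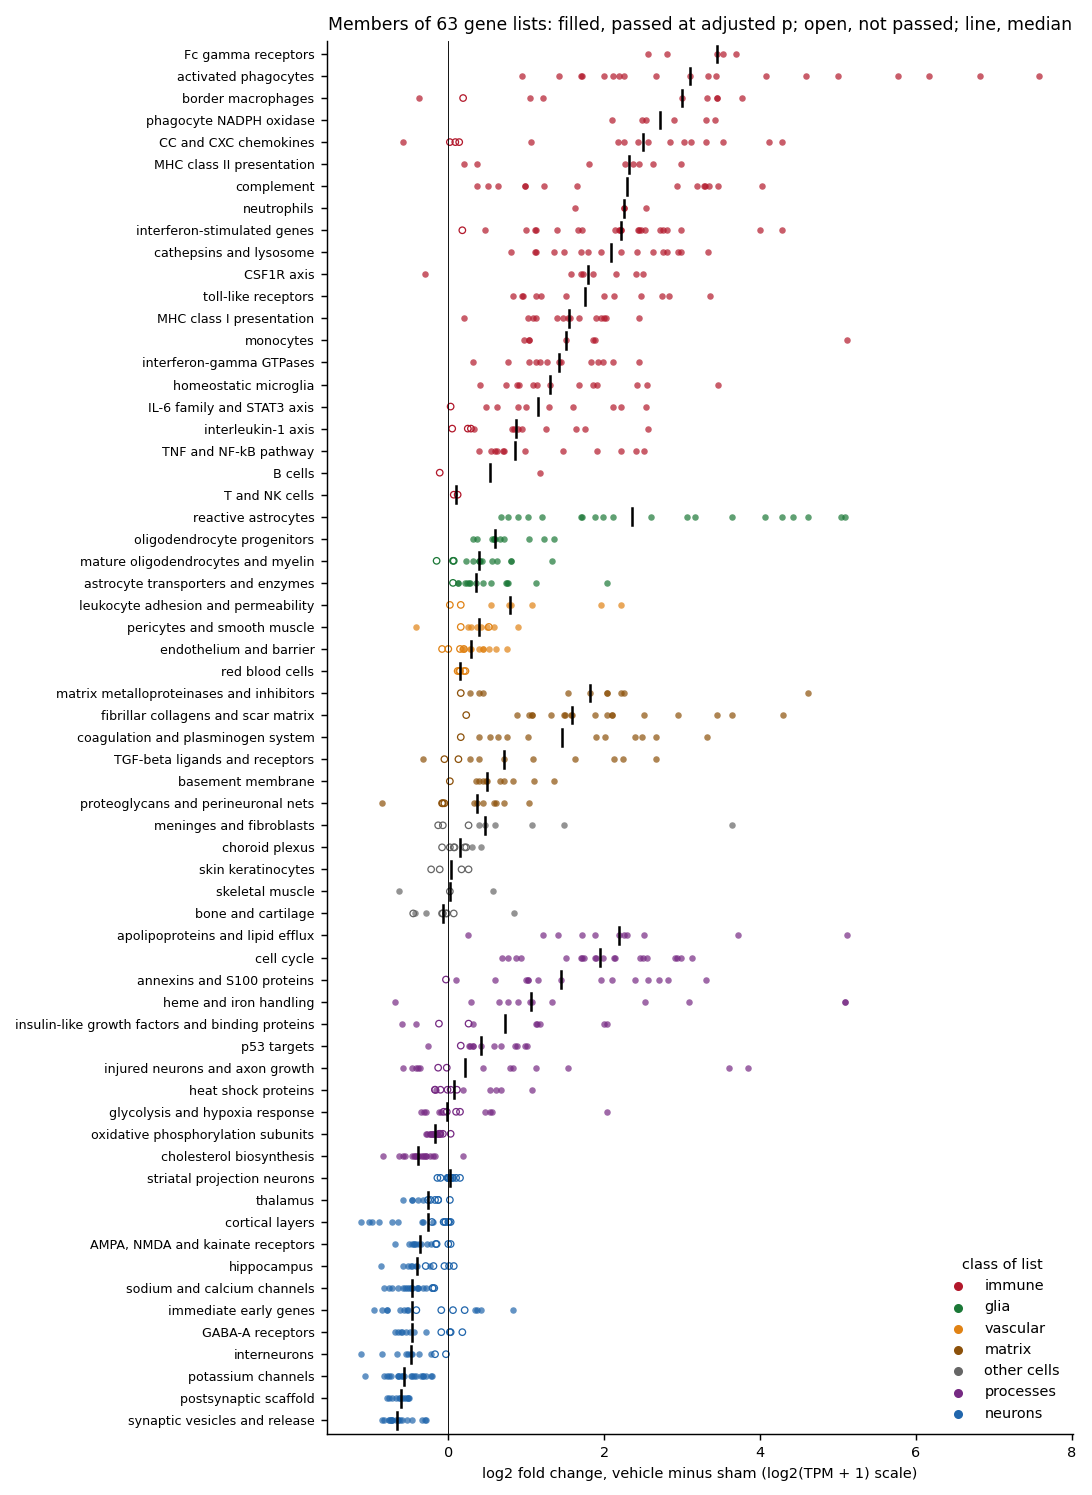
Log2 fold change (vehicle minus sham, x axis) of every tested member of 63 gene lists (rows, grouped by class and sorted by their median, black line). Filled points passed at the adjusted p and open points did not; immune lists lie to the right with 204 of 219 genes raised, neuronal lists to the left with 122 of 172 lowered.

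Over all 63 lists, which held 719 tested genes, every tested member rose in 17 lists, every tested member fell in 3 (synaptic vesicles, postsynaptic scaffold and potassium channels), and no member passed in 4 (T and NK cells, red blood cells, skin keratinocytes and striatal projection neurons). When each mouse was left out in turn, every member rose throughout in 13 of the 17 lists and fell throughout in 1 of the 3, that of the postsynaptic scaffold. Of 219 tested genes in the immune lists 204 rose and 3 fell, and of 60 in the glial lists 56 rose and none fell. These counts stand beside 26.6% that rose and 27.7% that fell among all genes tested. Because the lists were chosen with earlier results of these data known, the counts describe the members and are no test of them.

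The injured mice were ordered alike in many lists. Among the 12 neuronal lists, of which all but that of striatal projection neurons were lower than in sham by their mean score, J17B had the highest score in 8 and J01B in 4, and J19B the lowest in 7. Scores of activated phagocytes were 3.53, 3.11, 3.72, 3.73 and 3.5 in the vehicle mice, with J17B the lowest, whereas sham scores lay between -0.03 and 0.04. For homeostatic microglia J17B was not the lowest (1.42, 1.45, 1.67, 1.65 and 1.65). Without J17B the number of genes that rose differed by at most 2 in each of the 63 lists, as did the number that fell, and the list medians moved by at most 0.23, the most in red blood cell genes.

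**Figure D5:**
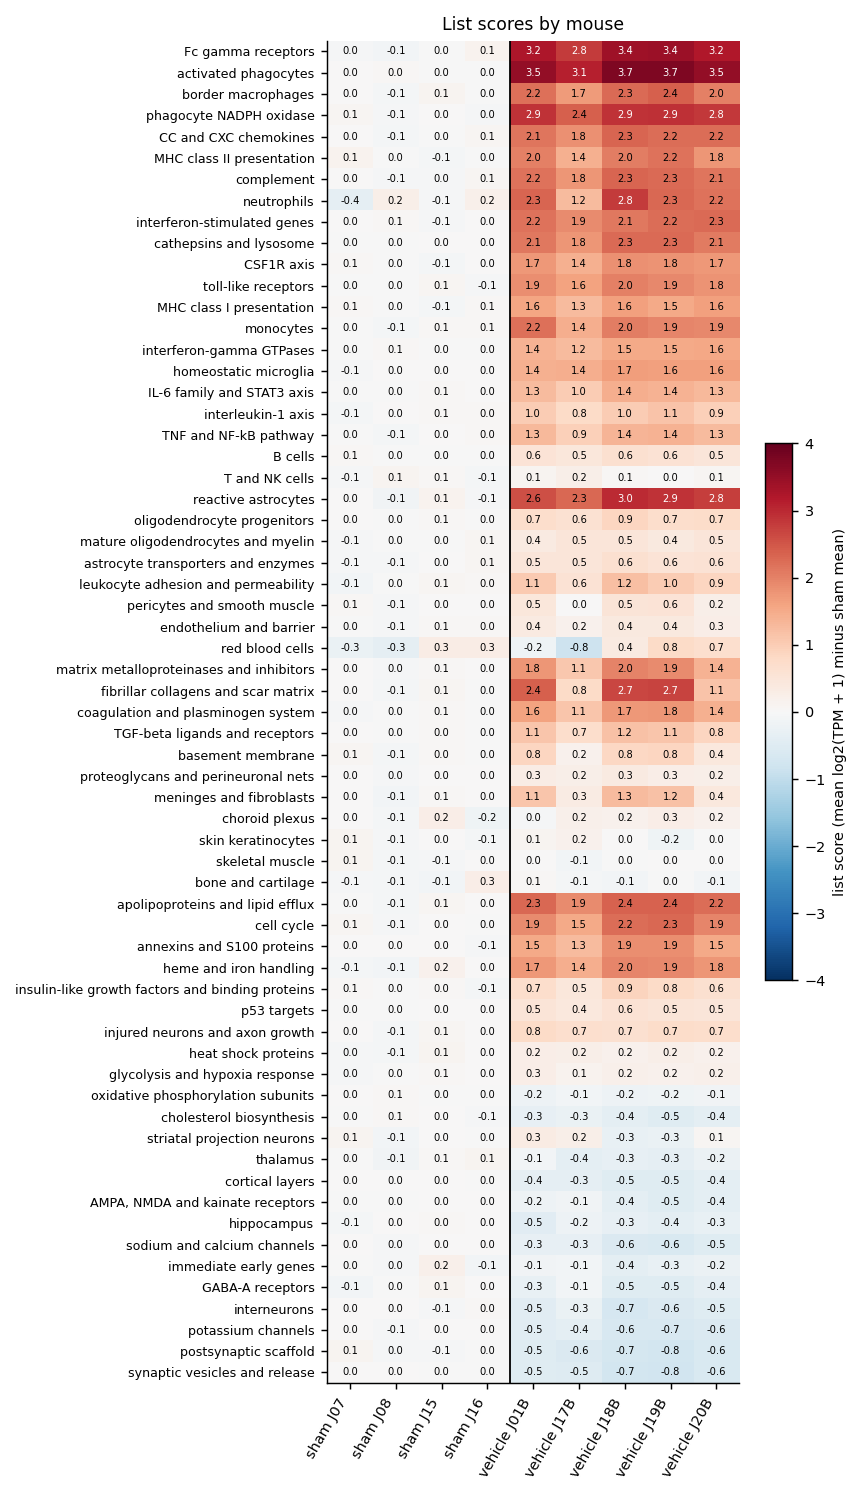
Scores of 63 gene lists (rows) in the 4 sham and 5 vehicle mice (columns), as the mean log2(TPM + 1) of the tested members minus the sham mean, from blue (lower) to red (higher). Sham columns stay between -0.37 and 0.31, while in vehicle columns J17B is paler than its neighbours in most raised lists.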

How the data were processed

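Poly(A) RNA of injured and sham brain quadrants was sequenced in 24 mice. Per the methods, the authors trimmed and mapped the reads in CLC Genomics Workbench on mouse build GRCm38 and deposited TPM per gene. Filtered and rounded copies of that table, which also hold p and F values of the authors' tests, were not used. Samples were grouped by their labels.

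Log2(TPM + 1) of genes averaging 0.5 TPM or more was fitted in limma (3.58.1, R 4.3.3) with 1 mean per group over all 24 libraries and a trended variance, and p-values were Benjamini-Hochberg adjusted over the 17267 genes tested. The steps were tested on simulated data. Libraries of a group differed in nearly all gene values, so none was counted as a duplicate. Whether mice shared a litter or day is not given.

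Members and gene lists were chosen with earlier results of these data known. The rule named the 10 largest changes each way among DEGs that passed at the adjusted p and did not overlap. Predicted genes, 19 of the higher and 5 of the lower DEGs, were left out of this ranking. Also named were the 5 largest TPM gains and losses and the drug targets with the stained genes. From each list the rule took the first 2 and the extreme genes. Other genes were chosen after their values were seen. List members were described by counts and medians, without a test. Some single genes of the lists are not reported here. Promoters came from RefSeq (GRCm38.p6). Alternatives were the pseudocount, the filter on low values, the scaling, the libraries fitted, the DEG criteria, and leaving out each mouse.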

Additional observations from a re-analysis of the deposited data

Results flagged for a closer look

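Dixon's test for a single distant sample was applied to 510 groups of 4 or 5 mice, and 33 groups held such a sample. Chance alone flags about 1 in 20 groups. Where all other mice were at 0, any single value above 0 is flagged whatever its size, and that rate does not apply. This held for Ly6g and Mpo in both groups and for Apoc2, Camp, Chil3, Gzma and Il1rn in sham mice. In vehicle mice the distant sample was J17B in 10 cases. It was low for Cd68 (209 TPM), Gpnmb (196 TPM), Hk2 (7.76 TPM), Lamp1 (689.8 TPM) and Serping1 (28.6 TPM) and high for Ly6g (0.145 TPM). Its scores were low for the CSF1R axis (1.41), the phagocyte NADPH oxidase (2.40), the TNF and NF-kB pathway (0.95) and skeletal muscle (-0.12). The other vehicle mouse concerned was J19B, which was high for Ccl12 (40.8 TPM), Mpo (0.0948 TPM) and Sprr1a (17.4 TPM).

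In sham mice, J07 was distant for Apoc2 (0.175 TPM), Ctss (88.7 TPM), Il1rn (0.0504 TPM), Ly6g (0.152 TPM), Mmp9 (1.80 TPM), P2ry12 (25.9 TPM) and the score of homeostatic microglia (-0.0543). J08 was distant for Camp (0.453 TPM), Cd68 (17.8 TPM) and the score of interferon-gamma GTPases (0.0480). J15 was distant for Arc (92.7 TPM), Chil3 (0.163 TPM), Lcn2 (4.55 TPM) and Mpo (0.0492 TPM). J16 was distant for C3ar1 (1.64 TPM), Gzma (0.251 TPM), Kirrel2 (10.9 TPM), Mobp (687 TPM), the score of bone and cartilage genes (0.26) and that of annexins and S100 proteins (-0.0554).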

How the results depend on the processing

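When 1 TPM rather than 4 TPM was asked as the smallest difference, DEGs numbered 1366 higher and 73 lower, because more genes of low level qualify. Leaving out each mouse in turn gave 837 to 958 higher and 21 to 36 lower DEGs, 4241 to 4603 genes that rose and 4307 to 4926 that fell. Under the other alternatives higher DEGs numbered 805 to 899 and lower DEGs 24 to 26, and the counts that rose and fell were 3391 to 4851 and 4352 to 4750, the lowest with the filter at a mean of 5 TPM, which tests 12523 genes. Of 5119 values for 369 single genes, 5044 kept their direction and side of the threshold, 53 lost their call, 22 gained one and 0 changed sign. Cmpk2 also passed after rescaling by the median ratio (0.19) and with the 9 compared libraries alone (0.18), Il1b passed with a pseudocount of 0.1 (0.87), and Lyve1 lost its call with that pseudocount (-0.88) and with the 9 libraries (-0.37). No paired analysis was possible because vehicle and sham mice share no animal numbers. Read depth is unknown, so how far counting error limits genes of low TPM cannot be stated, and with 5 and 4 mice the spread of each group is itself uncertain. TPM is a share of the library, so decreases are relative to the rise of other transcripts.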

Other observations

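Genes of metabolism and stress that belong to no comparison above were described by the same fit of vehicle against sham mice. Of 19 genes of cholesterol biosynthesis 18 fell and 1 (Ebp) rose, with a median log2 fold change of -0.39 beside -0.013 over all genes tested. Fdft1, the squalene synthase that commits the pathway to sterols, was at 34.9, 34.8, 35.2 and 34.5 TPM in sham and 22.4, 23.8, 21.5, 21.4 and 22.01 TPM in vehicle mice (log2 fold change -0.63 ± 0.05 (SE), adjusted p = 2.31e-11), without overlap. Of 18 subunits of oxidative phosphorylation 13 fell (median -0.16). Glycolytic genes were mixed, with 4 of 13 raised and 5 lowered, or 3 lowered without J08. Over all genes tested 26.6% rose and 27.7% fell, and the glycolytic counts lie near these shares. Hk2, the inducible hexokinase, rose from 2.48, 1.51, 2.48 and 1.92 TPM to 11.7, 7.76, 13.2, 12.9 and 12.96 TPM, whereas Aldoa fell (-0.35 ± 0.04).

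Of 13 targets of p53, 11 rose and 1 (Plk2) fell, with a median of 0.42. The cell-cycle inhibitor Cdkn1a was at 21.6, 19.7, 18.9 and 22.6 TPM in sham and 59.9, 30.2, 41.8, 46.4 and 37.7 TPM in vehicle mice (log2 fold change 0.99 ± 0.13 (SE), adjusted p = 5.42e-07). Of 15 annexins and S100 proteins 14 rose (median 1.44), led by S100a4, a calcium-binding protein of motile cells, at 4.76, 4.76, 3.19 and 3.51 TPM and 41.9, 34.5, 70.4, 59.3 and 42.8 TPM. Heat shock proteins were mixed, with 5 of 12 raised and 1, Dnajb1, lowered, but 3 lowered without J17B and none without J18B, J19B, J20B, J07 or J15. The shares over all genes tested were 26.6% raised and 27.7% lowered. Of 10 insulin-like growth factor genes 6 rose and 2 fell (median 0.72). Igf1, a growth factor made by activated microglia among other cells, went from 3.51, 3.75, 3.65 and 3.19 TPM to 17.01, 12.7, 20.4, 20.2 and 15.9 TPM (log2 fold change 2.00 ± 0.13 (SE), adjusted p = 2.81e-12), and the binding protein Igfbp6 fell (-0.60 ± 0.07).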
